A study of Mus musculus with 8 samples.

Results

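The 35 genes described here encode proteins of the skeletal muscle fibre: 8 of the thick filament, 8 of the thin filament and its troponin switch, 7 of the Z disc and elastic filament, 6 of calcium handling and 6 of energy supply. They were chosen by symbol, and all 35 were found among the 34745 genes of the deposited count files. The 8 RNA-seq libraries came from tumours of the mouse melanoma line B16F10, whose cells were kept in DMEM with 10% FBS and then injected subcutaneously into C57BL/6J hosts. Libraries ND 1 to ND 4 are from hosts on normal diet and HCD 1 to HCD 4 from hosts on high cholesterol diet, and no other treatment is named. The comparison of the groups asks which transcripts of the tumour tissue differ with diet. The sources used here do not give the age of the mice, the length of the diet or how tumours were cut from the surrounding tissue. The labels do not state that each tumour had its own host, so every p below reflects the spread among these libraries, which may be technical.

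Skeletal muscle contracts when calcium, released from the sarcoplasmic reticulum, binds troponin on the thin filament and lets myosin heads of the thick filament pull on actin. Fast fibres and slow fibres carry different isoforms of myosin, troponin and the calcium pump, so the isoforms tell the fibre types apart. Mouse skin lies on a thin sheet of striated muscle, the panniculus carnosus, which is made mainly of fast fibres. Mature fibre proteins are not part of the usual programme of melanoma cells, though some of the 35 genes are also transcribed at a low level outside muscle.

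Most of the fibre genes were read from few molecules, and most of their counts lay in ND 1 and ND 2. Together the 35 genes held 2327 counts in ND 1, 3146 in ND 2, 1009 in ND 3 and 790 in ND 4, against 878, 690, 881 and 847 in HCD 1 to HCD 4. As a share of all counts this was at most 0.0186%, in ND 2, and at least 0.00426%, in HCD 2. ND 1 and ND 2 stood above the other 6 libraries, whose sums lay between 42.6 and 60.8 CPM. In those 6 libraries Eno3 and Neb held 56.3 to 78.1% of these counts. Without Eno3 and Neb, left out after their values were seen, ND 3 was at 26.6 CPM and ND 4 at 11.8 CPM. The HCD libraries were then at 10.1 to 15.2 CPM. In bulk tissue, fewer muscle fibres and less RNA per fibre cannot be told apart.

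The promoters of 4 genes are shown because these genes bracket the pattern: Acta1, Myh1 and Myh4 had most of their counts in ND 1 and ND 2, while Eno3 was nearly level across the libraries. They were chosen after their values were seen. Each sequence runs from 250 bases before to 50 bases after a RefSeq transcription start (GRCm38.p6), 5′ to 3′ on the gene's strand, and 27 of the 35 genes had an entry. Capitals mark matches on either strand. The motifs searched were the E-box form CAGCTG, which myogenic factors are known to bind, and a further E-box form spelled CACCTG. The MEF2 and CArG consensus motifs, also known from muscle promoters, were searched by name, and TATAAA was searched for the general TATA box. Acta1 lies at chr8:123894726-123895025 on the minus strand. Myh1 lies at chr11:67199852-67200151, Myh4 at chr11:67237562-67237861 and Eno3 at chr11:70656926-70657225, all on the plus strand.
Acta1: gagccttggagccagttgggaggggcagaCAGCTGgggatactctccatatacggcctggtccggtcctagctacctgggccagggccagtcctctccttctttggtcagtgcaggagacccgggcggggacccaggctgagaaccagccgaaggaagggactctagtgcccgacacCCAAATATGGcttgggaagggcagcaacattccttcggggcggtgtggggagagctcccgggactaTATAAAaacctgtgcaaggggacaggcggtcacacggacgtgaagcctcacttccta
Myh1: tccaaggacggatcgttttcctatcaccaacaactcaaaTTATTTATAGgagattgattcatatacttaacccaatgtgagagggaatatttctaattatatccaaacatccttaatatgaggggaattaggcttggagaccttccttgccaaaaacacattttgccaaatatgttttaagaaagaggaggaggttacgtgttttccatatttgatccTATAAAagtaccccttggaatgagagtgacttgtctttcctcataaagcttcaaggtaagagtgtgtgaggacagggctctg
Myh4: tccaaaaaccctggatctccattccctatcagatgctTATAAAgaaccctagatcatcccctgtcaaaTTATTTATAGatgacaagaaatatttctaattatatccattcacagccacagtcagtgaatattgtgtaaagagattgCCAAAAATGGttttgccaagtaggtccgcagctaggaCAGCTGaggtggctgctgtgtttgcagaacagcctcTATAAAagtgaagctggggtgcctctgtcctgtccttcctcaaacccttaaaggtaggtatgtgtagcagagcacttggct
Eno3: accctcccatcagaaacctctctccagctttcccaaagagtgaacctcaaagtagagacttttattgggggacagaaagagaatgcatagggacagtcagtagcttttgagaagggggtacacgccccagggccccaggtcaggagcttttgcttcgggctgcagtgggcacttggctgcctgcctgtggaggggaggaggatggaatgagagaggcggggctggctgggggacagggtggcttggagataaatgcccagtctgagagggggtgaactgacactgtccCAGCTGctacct

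Acta1 and Myh4 were the 2 genes of the 27 with a CArG match, and such a match stood in 1.63% of all 32851 RefSeq promoters of this length. A MEF2 match stood in 6 of the 27 genes (Myh1, Myh4, Pvalb, Ttn, Xirp2 and Pgam2) and in 3.19% of all promoters. In Myh1 and in Myh4 that match overlaps a TATAAA match on the other strand, so the run in capitals holds both. CAGCTG stood in 14 of the 27 genes and in 16.3% of all promoters, CACCTG in 8 genes and 20.2% of all promoters, and TATAAA in 6 genes and 13.6% of all promoters. Both E-box forms are contained in the wider form CANNTG, found in 23 of the 27 genes and 72.3% of all promoters. Genes and promoters are unlike units, since the 27 genes had 32 promoters. Of these 32 promoters, 50% held CAGCTG, 28.1% CACCTG, 18.8% TATAAA, 18.8% MEF2, 6.25% CArG and 84.4% CANNTG. The level gene Eno3 has a CAGCTG match after its start. These matches describe letters in the window and no binding was measured.

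**Figure D1:**
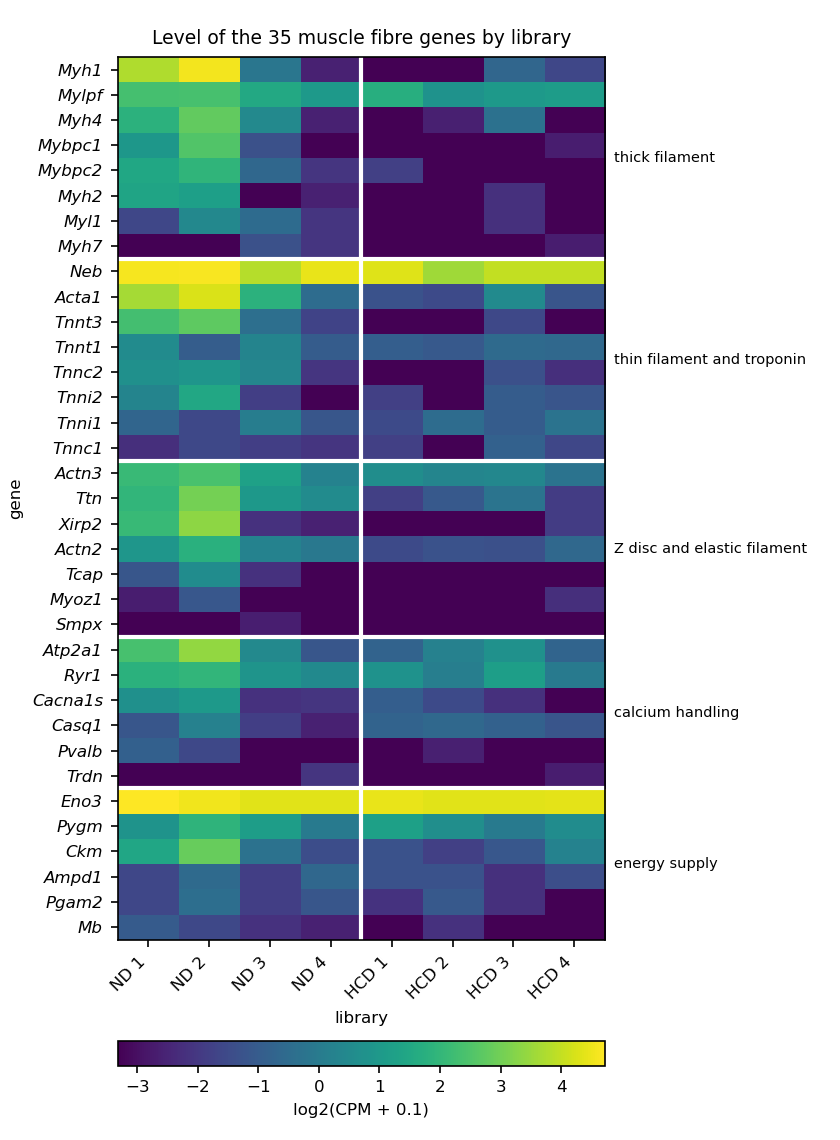
Level of each of the 35 genes (rows, grouped by role) in the 8 libraries (columns), as log2 of CPM plus 0.1, with CPM taken over the total count of the library. The bright cells of most rows lie in ND 1 and ND 2, while Neb and Eno3 are bright in all 8 libraries.

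Myosin heavy chains are the motor proteins of the thick filament, and the fast ones had most of their counts in ND 1 and ND 2. Myh1, the heavy chain of fast IIX fibres (ENSMUSG00000056328, chromosome 11, 67200052 to 67224575, mm10), had 240, 403, 13 and 1 counts in ND 1 to ND 4 and 0, 0, 9 and 4 counts in HCD 1 to HCD 4. Myh4, the heavy chain of fast IIB fibres (chromosome 11, 67238029 to 67260446), had 61, 114, 21 and 1 counts in ND and 0, 1, 12 and 0 in HCD. Both genes were high in ND 1 and ND 2, intermediate in ND 3, and overlapped between the groups because ND 4 lay among the HCD libraries. Myh2, the heavy chain of fast IIA fibres, had 44, 38, 0 and 1 counts in ND and 0, 0, 2 and 0 in HCD. Myh7, the heavy chain of slow fibres, had no count in ND 1 or ND 2 and 5 and 2 counts in ND 3 and ND 4, with 1 count in the whole HCD group. Slow myosin was thus not detected in the libraries with the most fast myosin, where 3 counts would correspond to 0.17 CPM in ND 1 and 0.177 CPM in ND 2.

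Myh1 took the largest share of the heavy chain counts in ND 1 and ND 2. It took 69.6% of the 345 heavy chain counts in ND 1 (95% exact binomial interval 64.4 to 74.4%) and 72.6% of the 555 in ND 2 (68.7 to 76.3%). Myh4 took 17.7% (13.8 to 22.1%) and 20.5% (17.3 to 24.1%), and Myh2 took 12.8% (9.42 to 16.7%) and 6.85% (4.89 to 9.28%). The intervals of Myh1 and of Myh4 overlapped between these libraries, while the share of Myh2 was higher in ND 1 beyond its interval. Library ND 3 had 39 such counts, of which Myh4 took 53.8% (37.2 to 69.9%) and Myh1 33.3% (19.1 to 50.2%). In HCD 3, with 23 counts, Myh4 took 52.2% (30.6 to 73.2%) and Myh1 39.1% (19.7 to 61.5%). The intervals for Myh1 in ND 3 and HCD 3 lie below those in ND 1 and ND 2. They cover counting error within single libraries only, since these reads carry no molecular identifiers, and they compare libraries rather than diets. Of the 50-base windows of the longest transcript, 26.7% of Myh1, 26.9% of Myh2, 18.9% of Myh4 and 22.2% of Myh7 also stand in a transcript of another gene, mainly another myosin, so the split between these genes is uncertain.

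**Figure D2:**
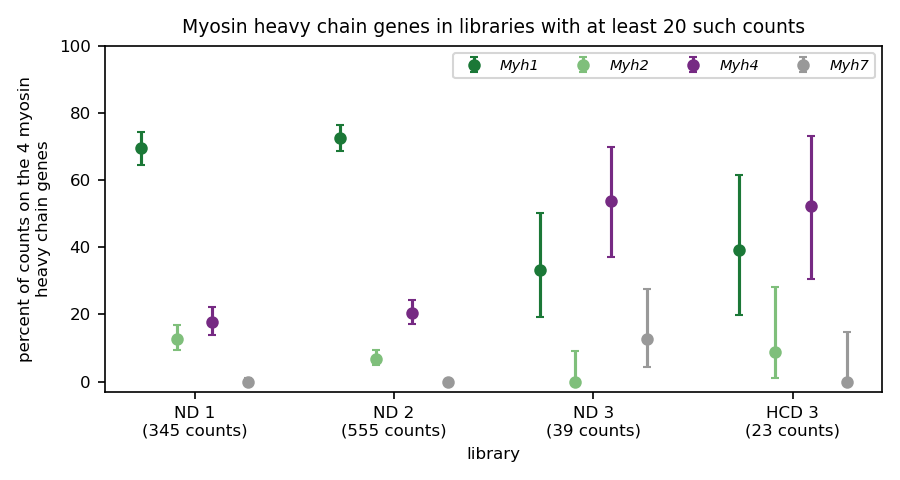
Percent of the counts on Myh1, Myh2, Myh4 and Myh7 that fell on each gene, in the 4 libraries with at least 20 such counts, with points for the share and bars for the 95% exact binomial interval. Myh1 lies near 70% in ND 1 and ND 2, while Myh4 lies above 50% in ND 3 and HCD 3 with wide intervals.

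Both myosin binding protein C genes also had most of their counts in ND 1 and ND 2. Mybpc1, myosin binding protein C of slow type (chromosome 10, 88518279 to 88605152), had 32, 97, 5 and 0 counts in ND and 0, 0, 0 and 1 in HCD, a ratio of pooled CPM of 137 with a counting interval of 24.2 to 5450, and of 50.9 (8.59 to 2065) without ND 2. Its fast counterpart Mybpc2 had 47, 63, 9 and 2 counts in ND and 3, 0, 0 and 0 in HCD, a ratio of 41.2 (13.8 to 203), and of 26.6 (8.66 to 133) without ND 2. These intervals cover counting error only, and ND 2 was left out after its values were seen. Most ND counts left without ND 2 were those of ND 1 (32 for Mybpc1 and 47 for Mybpc2). The ratios of both genes thus rest mainly on ND 1 and ND 2. The regulatory light chain gene Mylpf had 89, 86, 46 and 28 counts in ND and 51, 26, 33 and 37 in HCD, so every library held counts, ND 1 and ND 2 were the highest and the groups overlapped. Myl1, an alkali light chain of fast fibres, had 4, 21, 10 and 2 counts in ND and 0, 0, 2 and 0 in HCD. Part of its counts is uncertain, since 23.4% of its windows also stand in the pseudogene Mylf-ps.

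Among thin filament genes Acta1, skeletal muscle alpha-actin (ENSMUSG00000031972, chromosome 8, 123891769 to 123894751), had 216, 323, 58 and 9 counts in ND and 5, 4, 23 and 6 counts in HCD. The 3 highest values were ND libraries, ND 4 fell within the HCD range, and HCD 3 was the highest HCD library. Its TMM-normalized level averaged 9.01 ± 8.57 CPM in ND against 0.552 ± 0.518 CPM in HCD (SD, n = 4 libraries for every such value). Neb, nebulin, the ruler of the thin filament (chromosome 2, 52136647 to 52378474), had 426, 419, 231 and 316 counts in ND and 322, 192, 272 and 280 in HCD. Its ND and HCD values overlapped, and it had at least 192 counts in libraries where Myh1 was at 0.

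Troponin, the calcium switch on the thin filament, has separate genes for fast and slow fibres, and they behaved differently. Tnnt3, fast troponin T, had 87, 111, 11 and 3 counts in ND and 0, 0, 4 and 0 in HCD. Tnni2, fast troponin I, had 20, 46, 3 and 0 counts in ND and 3, 0, 7 and 6 in HCD. Tnnc2, fast troponin C, had 27, 29, 20 and 2 counts in ND and 0, 0, 5 and 2 in HCD. These fast genes were high in ND 1 and ND 2, and Tnnc2 also in ND 3. Tnnc2 shares exon positions with Ube2c on the other strand, and the part of Ube2c reads in its counts was not tested.

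None of the slow troponin genes was highest in ND 2. Tnnt1, slow troponin T, had 24, 7, 19 and 6 counts in ND and 7, 6, 10 and 10 in HCD, and Tnni1, slow troponin I, had 9, 4, 16 and 5 against 4, 10, 7 and 13. Tnnc1, troponin C of slow fibres and heart, had 2, 4, 3 and 2 counts in ND and 3, 0, 8 and 4 in HCD. In ND 2, the library with the most muscle counts, Tnnt1 was at 0.414 CPM and lay within the HCD range of 0.37 to 0.583 CPM. It was also within that range in ND 4 (0.411 CPM), but above it in ND 1 (1.36 CPM) and ND 3 (1.15 CPM). Per gene length, Tnnt3 made up 82.4% of troponin T FPKM in ND 1 and 95.3% in ND 2, while Tnnt1 made up all of it in HCD 1, HCD 2 and HCD 4, on 6 to 10 counts. Over all 14 fast isoform genes, the summed level was 45.4, 71.2, 11.8 and 4.25 CPM in ND and 5.95, 4.51, 7.58 and 4.46 CPM in HCD. The 5 slow isoform genes summed to 3.8, 6.62, 2.89 and 1.03 CPM in ND and 0.868, 0.988, 1.46 and 1.64 CPM in HCD. In ND 2 most of the slow sum, 97 of its 112 counts, came from Mybpc1.

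**Figure D3:**
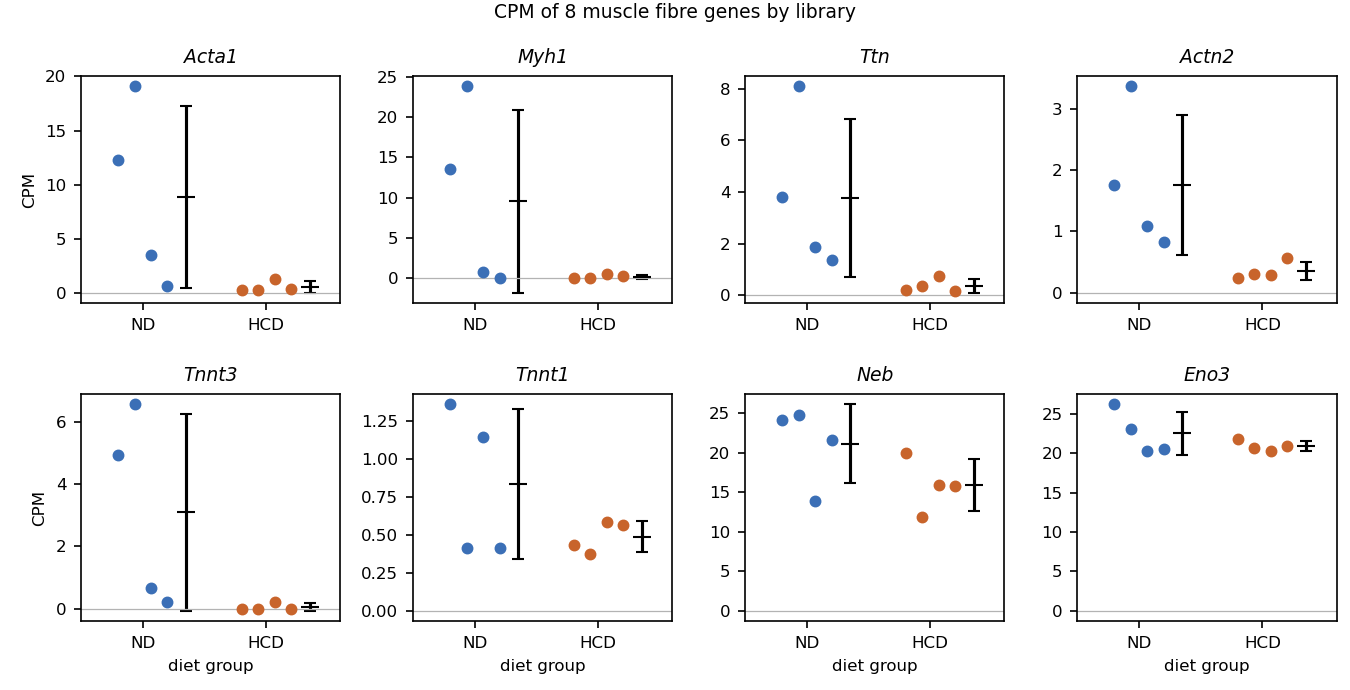
CPM over the library total of 8 genes in the ND (blue) and HCD (orange) libraries, 1 point for each library in order 1 to 4, with a black dash for the mean and bars for the SD (n = 4 each). Acta1, Myh1, Ttn and Tnnt3 are led by ND 1 and ND 2, and all genes shown except Ttn and Actn2 overlap between the groups.

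Among genes of the Z disc and elastic filament, Ttn and Actn2 did not overlap between the diets. Ttn, titin, the spring that spans the sarcomere from Z disc to M line (ENSMUSG00000051747, chromosome 2, 76703980 to 76982547), had 67, 137, 31 and 20 counts in ND and 3, 6, 13 and 3 counts in HCD. Actn2, the alpha-actinin of all muscle fibres and heart (chromosome 13, 12269426 to 12340760), had 31, 57, 18 and 12 counts in ND and 4, 5, 5 and 10 in HCD. For both genes all 4 ND libraries lay above all 4 HCD libraries, as they did in 4.73% of the 13186 genes tested over the whole file, with the opposite order in 4.94%. The 4 ND libraries alone were enough for Ttn and Actn2 to pass the expression filter, so nothing is read from this share. In CPM Myl1 did not overlap either, but ND 4 and HCD 3 both had 2 counts of it and differed only by the library total, and the other 32 genes overlapped. Actn3, the alpha-actinin of fast fibres, had 75, 88, 39 and 16 counts in ND and 23, 19, 21 and 13 in HCD. Xirp2, an actin-binding repeat protein of the muscle cell's adhesion sites, had 74, 173, 2 and 1 counts in ND and 0, 0, 0 and 3 in HCD, a ratio of pooled CPM of 85.2 with a counting interval of 28.8 to 416, and of 35.3 (11.6 to 175) without ND 2. Tcap, the titin cap, had 6, 24, 2 and 0 counts in ND and none in HCD, so it was at least 10.9-fold higher in ND against a floor of 3 counts over the HCD group, and at least 3.67-fold higher without ND 2. Most ND counts left without ND 2 were those of ND 1 (74 for Xirp2 and 6 for Tcap). The ratios of both genes thus rest mainly on ND 1 and ND 2. Myoz1, a calcineurin-binding Z disc protein, had 9 counts in all and Smpx 1.

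Among calcium handling genes, Atp2a1 and Ryr1 had the most counts. Atp2a1, the pump of fast fibres that returns calcium to the sarcoplasmic reticulum (chromosome 7, 126445858 to 126463108), had 91, 178, 21 and 5 counts in ND and 8, 17, 27 and 9 in HCD. The ND 1 and ND 2 libraries were the highest, while ND 3 and ND 4 lay within or below the HCD range. Its exons overlap those of Rabep2 on the other strand, and whether reads were counted by strand is unknown here. Ryr1, the calcium release channel, had 60, 65, 28 and 19 counts in ND and 26, 16, 37 and 16 in HCD, and Cacna1s, the voltage sensor that triggers it, had 27, 33, 2 and 2 against 7, 4, 2 and 0. Casq1, the calcium store protein of the reticulum, had 6, 18, 3 and 1 counts in ND and 8, 9, 8 and 6 in HCD. It did not follow the fast myosins, since HCD 1 to HCD 4 lay above ND 3 and ND 4. Pvalb, a calcium buffer of fast fibres, had 12 counts in ND and 1 in HCD, and Trdn, which anchors the release complex, had 3 counts in all.

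Genes of energy supply were the least contrasted group. Ckm, muscle creatine kinase (chromosome 7, 19404776 to 19422841), had 46, 121, 12 and 4 counts in ND and 5, 3, 6 and 19 in HCD, with ND 1 and ND 2 above the rest. Eno3, the muscle form of the glycolytic enzyme enolase (chromosome 11, 70657202 to 70662513), had 463, 390, 337 and 301 counts in ND and 352, 334, 349 and 371 in HCD. Its TMM-normalized level averaged 22.9 ± 2.69 CPM in ND against 20.6 ± 0.518 CPM in HCD, and every library was within 20.3 to 26.3 CPM of the library total. Pygm, muscle glycogen phosphorylase, had 29, 62, 35 and 13 counts in ND and 37, 24, 15 and 25 in HCD. Mb, the oxygen store myoglobin, had 7, 4, 2 and 1 counts in ND and 2 in the whole HCD group. The phosphoglycerate mutase gene Pgam2 had 23 and 10 counts in ND and HCD, and the AMP deaminase gene Ampd1 had 25 and 17.

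**Figure D4:**
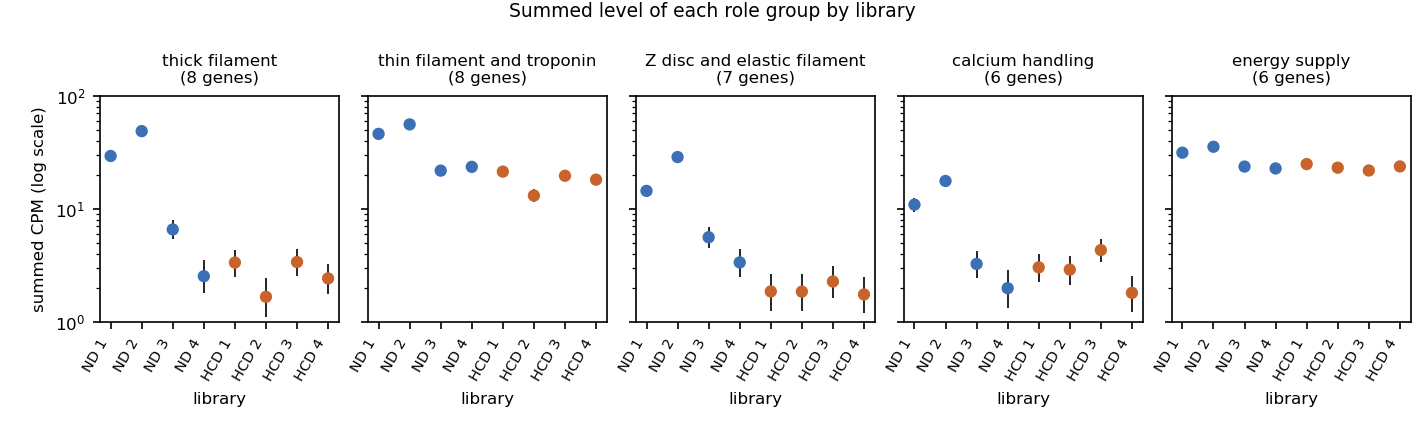
Summed CPM over the library total of each role group in the ND (blue) and HCD (orange) libraries on a log scale, with bars for the 95% exact binomial interval of the summed count. The thick filament sum has its highest value, 48.6 CPM, in ND 2 and its lowest, 1.67 CPM, in HCD 2, while the energy supply sum stays between 21.8 and 35.4 CPM.

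Role groups differed in how far ND 2 stood above the HCD mean. The thick filament sum was 48.6 CPM in ND 2 against a HCD mean of 2.71 ± 0.822 CPM. ND 2 was 14.8 times the HCD mean for the Z disc and elastic filament, 5.84 times for calcium handling, 3.09 times for the thin filament and 1.51 times for energy supply. Neb and Eno3 make up most of the last 2 groups in the low libraries. Without these 2 genes, left out after their values were seen, the summed level of the other 33 was 81.5, 138, 26.6 and 11.8 CPM in ND and 12.6, 10.1, 15.2 and 11.1 CPM in HCD. ND 4 then lay inside the HCD range, ND 3 at 2.17 times the HCD mean, ND 1 at 6.66 times and ND 2 at 11.3 times. The ND mean was 5.27 times the HCD mean for these 33 genes and 2.21 times for all 35, with ND at 108 ± 62.7 CPM and HCD at 49.0 ± 5.08 CPM. For all 35 the factor was 1.68 without ND 2 and 1.17 without ND 1 and ND 2.

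Levels between genes were compared per length, in the deposited FPKM. In ND the highest mean FPKM were those of Eno3 (7.18 ± 0.875), Acta1 (6.19 ± 5.88), Mylpf (2.11 ± 0.915), Ckm (1.9 ± 2.22), Tnnc2 (1.43 ± 0.882) and Myh1 (1.33 ± 1.58). In HCD the order was Eno3 (6.66 ± 0.201), Mylpf (1.25 ± 0.384), Neb (0.553 ± 0.115), Acta1 (0.39 ± 0.365), Actn3 (0.376 ± 0.0962) and Ckm (0.339 ± 0.284). In ND each neighbour in this order differed by less than the larger of the 2 SDs. In HCD Eno3 and then Mylpf stood above the next gene by more than the SD, while Neb, Acta1, Actn3 and Ckm did not differ from their neighbours beyond it. Acta1 alone reached 13.3 FPKM in ND 2, above the 7.34 FPKM of Eno3 there, and was at 0.172 FPKM in HCD 2. Of the 35 genes 25 had their highest CPM in ND 2, 5 in ND 1, 3 in ND 3, 1 in ND 4 and 1 (Tnnc1) in HCD 3. Among the 12 genes that passed the expression filter described below, ND 2 was highest for 11, where it was highest for 14.1% of all genes tested. It exceeded the median of the other 7 libraries more than 2 times for 10 of the 12, where it did so for 1.18% of all genes tested. ND 2 was singled out because these same genes summed highest in it. Some of the 12, among them Myh4 and Ckm, passed the filter only with ND 2 counted. Nothing is therefore read from these shares.

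Between ND 1 and ND 2 the ratio differed from gene to gene among the fibre genes. Of the 32 genes with counts in either library, 14 had a ratio of ND 2 to ND 1 whose 95% counting interval lay above 1, 1 had an interval below 1 and 17 had an interval that included 1. These intervals cover counting error only, and over all genes this pair varied 37.6 times more than sampling alone gives. The same count over all genes was not made, and these fibre genes summed highest in ND 2. Nothing is therefore read from these numbers of genes. The ratio was 3.16 for Mybpc1 (2.1 to 4.87), 2.74 for Ckm (1.94 to 3.94), 2.44 for Xirp2 (1.85 to 3.25) and 1.75 for Myh1 (1.49 to 2.06). It was 1.56 for Acta1 (1.31 to 1.86) and 0.901 for Myh2 (0.568 to 1.42), 0.878 for Eno3 (0.766 to 1.01) and 0.304 for Tnnt1 (0.111 to 0.728). Tnnt1 was thus the gene that was lower in ND 2 than in ND 1 beyond counting error.

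No fibre gene passed the test of HCD against ND over all genes. The expression filter asked for enough counts in 4 libraries and kept 12 of the 35 genes. All 12 had a negative log2 fold change, as did 48.9% of all genes tested. Of the 12, 9 were lower and 0 higher at an unadjusted p under 0.05, where 7.49% of all genes tested were lower and 7.21% higher. After Benjamini-Hochberg adjustment 0 passed in edgeR's quasi-likelihood fit (adjusted p from 0.0727 to 0.644). Over the whole file 0.182% of the 13186 genes tested were called, 0.114% as lower and 0.0683% as higher in HCD. The median log2 fold change was -1.92 over the 12 genes and 0.0049 over all genes tested. The 12 are the genes with enough counts and are not a sample of all 35. For some, among them Ttn, Actn2 and Acta1, the 4 ND libraries alone were enough to pass the filter. Shares and medians over the 12 are therefore partly set by the filter, and nothing is read from them.

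Ttn came closest, with 3.85 ± 3.12 CPM in ND, 0.366 ± 0.271 CPM in HCD and a log2 fold change of -3.37 (SE 0.666, edgeR adjusted p = 0.0727). Actn2 was at 1.79 ± 1.17 and 0.35 ± 0.148 CPM (log2 fold change -2.33, SE 0.518, edgeR adjusted p = 0.099), and Acta1 had a log2 fold change of -4.01 (SE 0.937, edgeR adjusted p = 0.106). Those of Actn3, Myh4, Ckm and Atp2a1 were -1.55, -3.90, -2.50 and -2.29, with edgeR adjusted p = 0.156, 0.176, 0.248 and 0.252. The smallest differences were -0.81 for Mylpf, -0.46 for Neb, -0.51 for Pygm and -0.15 for Eno3, and Ryr1 lay at -0.90. The SD of ND exceeded its mean for Myh4, Ckm and Atp2a1 and came near it for Acta1, with ND 1 and ND 2 the highest libraries in each.

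Without ND 1 and ND 2 the differences shrank. In this fit 0 fibre genes were called, where 11 of the 13575 genes tested were called (edgeR). At an unadjusted p under 0.05 there were 3 of the 13 fibre genes tested and 1518 of all genes tested (edgeR). Ttn kept a log2 fold change of -2.15 (edgeR adjusted p = 0.233), Acta1 of -1.92 (0.401 adjusted) and Actn2 of -1.45 (0.346 adjusted). Ckm moved to -0.10, Mylpf to -0.15, Ryr1 to -0.13 and Atp2a1 to 0.10. Over the 17 alternative fits, the adjusted p of Ttn ran from 4.12e-05 (DESeq2) to 0.339.

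With no expression filter, all 35 genes entered the test, 33 with a negative log2 fold change and Tnnc1 and Casq1 with a positive one (0.35 and 0.10). At an unadjusted p under 0.05, 23 were lower, where 5.36% of all genes were. After adjustment 7 were called lower in HCD (Acta1, Mybpc1, Mybpc2, Myh1, Tnnt3, Ttn and Xirp2; edgeR adjusted p from 0.0158 to 0.0493), where 0.24% of the 22893 genes tested were called lower. DESeq2, with the filter, called 3 of the 12 genes lower (Acta1, Actn3 and Ttn), where it called 1.83% of all genes tested lower. It gave Actn2 no adjusted p, though its unadjusted p was below that of Acta1 and Actn3, so 11 of the 12 could be called. Both are alternatives to the filtered edgeR fit, which called 0.

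Of 60 other muscle genes in a further list, 26 were highest in ND 2, which was highest for 14.1% of all genes tested. Only 17 of the 60 were tested, and some of the 26 had few counts, such as Jph1 with 2 in all. Nothing is read from this number of genes. Summed over the list, levels were 127.8 to 163 CPM in ND and 126 to 139.5 CPM in HCD, highest in ND 2. Of 17 tested genes 13 were lower and 4 higher in HCD and 0 were called (edgeR; 1 lower and 1 higher at an unadjusted p under 0.05), with a median log2 fold change of -0.22. Over all genes tested 48.9% were lower and 0.182% were called (edgeR). At that unadjusted p 7.49% of all genes tested were lower and 7.21% higher. The sum was led by Trim63, a ubiquitin ligase gene, with 804 to 1031 counts in ND and 1006 to 1072 in HCD. Hspb7, a small heat shock protein gene of striated muscle, had 24, 42, 4 and 0 counts in ND and 2, 0, 1 and 0 in HCD. Nrap, an anchor of thin filaments, had 32, 44, 6 and 9 counts against 7, 6, 6 and 2. Mylk2, the myosin light chain kinase of skeletal muscle, Myoz2 and Trim54 had counts in ND 1 and ND 2 and none in the other 6 libraries. Cmya5, a costamere protein gene, had 22, 44, 26 and 18 counts in ND and 2, 8, 6 and 0 in HCD (log2 fold change -2.81, edgeR adjusted p = 0.0984). Some genes of the list lay the other way: Jph2, which ties the reticulum to the cell membrane, had 12, 6, 4 and 6 counts in ND and 22, 19, 20 and 7 in HCD (log2 fold change 1.21, edgeR adjusted p = 0.273). Casq2, the cardiac and slow fibre form of calsequestrin, had 7, 11, 9 and 5 counts against 8, 15, 9 and 19.

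Genes of muscle precursors had few counts apart from those also used by other lineages. Myod1, Myog and Myf6, which drive muscle differentiation, had 5, 4 and 5 counts, each in a single ND library, and Myf5 and Mymx had none. Pax7, a satellite cell factor, had 3 counts in all. Pax3, which is also a melanocyte lineage factor, had 2193 to 2573 counts in ND and 2577 to 2837 in HCD. Among genes of developing muscle, Myh3 had 5, 11, 5 and 0 counts in ND and 6, 1, 4 and 0 in HCD, and Tnnt2, the cardiac and embryonic troponin T, had 129, 107, 208 and 67 against 53, 73, 70 and 52. Among 9 heart genes, Myl7 was at 0, Myh6 had 6 counts and Nppa 7 counts in all, and Tnni3 had 17, 2, 1 and 4 counts in ND and 6, 1, 8 and 2 in HCD. Nppb, a natriuretic peptide gene, had 293 to 400 counts in ND and 238 to 342 in HCD, and Myl4, an atrial and embryonic light chain gene, had 14 to 53 and 11 to 27. Tested genes were few in these lists and 0 were called in any of them: 3 precursor genes (2 lower, 1 higher), 2 developing muscle genes and 2 heart genes (all lower), with 1 gene of each list lower at an unadjusted p under 0.05 (edgeR). Over all genes tested 0.182% were called and 7.49% were lower at that unadjusted p (edgeR). Nothing is read from so few tested genes.

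Markers of other tissues were set beside the fibre genes, and their part in the result was not tested. White fat cell genes had their highest sums in HCD, at 63.3, 29.9, 41.5 and 23.0 CPM, against 14.2 to 17.2 CPM in ND. The adipokine gene Cfd had 11, 8, 0 and 0 counts in ND and 302, 4, 105 and 5 in HCD, and Adipoq had 3, 4, 0 and 1 against 61, 6, 31 and 0. The sum of the fat list was highest in HCD 1 and that of the fibre genes in ND 2. Keratinocyte and skin genes summed to 0.964 to 2.54 CPM in ND and 0.372 to 1.67 CPM in HCD, and Krt5, Krtdap and Dsg3 were at 0 in all libraries. Fibroblast genes summed to 287, 159, 72.1 and 57.5 CPM in ND and to 279, 309, 281 and 77.1 CPM in HCD, and smooth muscle and pericyte genes to 94.6 to 125 CPM and 122 to 144 CPM. Melanocyte genes summed to 28781 to 30154 CPM in ND and 27592 to 31231 CPM in HCD, so markers of the labelled line were present. Brown fat cell genes summed to 55.3 to 78.9 CPM in ND and 83.1 to 87.5 CPM in HCD, peripheral nerve genes to 201 to 273 CPM and 190 to 234 CPM, endothelial genes to 231 to 296 CPM and 210 to 290 CPM, and macrophage genes to 307 to 519 CPM and 481 to 626 CPM.

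**Figure D5:**
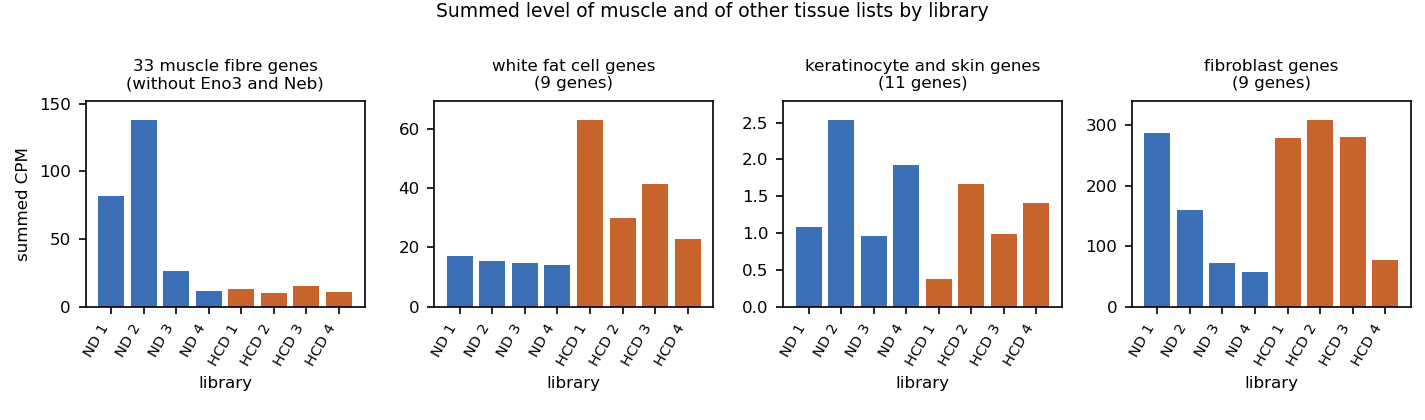
Summed CPM over the library total of 33 fibre genes and of 3 lists of other tissue genes in the ND (blue) and HCD (orange) libraries. The fibre genes are highest in ND 2 and the white fat cell genes in HCD 1, each on its own axis that starts at 0.

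Total counts were 14599222 to 17637202 in ND and 16137885 to 17722093 in HCD. ND 2, ND 3 and ND 4 had counts on 18088 to 18224 genes, the other 5 libraries on 16285 to 16745, and olfactory and vomeronasal receptor genes had counts for 413 to 435 genes in the former and for 8 to 13 in the latter. The part of such stray low counts in the fibre genes was not tested. Myh7, Trdn and Smpx had at most 5 counts in any library. Mitochondrially encoded genes took 13.7 to 14.7% of counts in ND and 11.4 to 12.9% in HCD, and the part of this difference in the results was not tested.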

How the data were processed

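RNA-seq libraries of 8 tumours were analysed, grouped by the diet in their titles, which also gives the replicate number. Per the labels' protocols, RNA came from an RNeasy extraction and went into paired-end TruSeq RNA libraries. Per the submitters' processing notes, CASAVA 1.8, TopHat2 2.0.9, HTSeq, edgeR and the build mm10 were used, with no role or order given. Per the file headers, the authors deposited a count for each gene, with no normalization, and an FPKM for each gene. Each deposited FPKM equals the count over a gene length and the summed counts of that library (within 0.5% for all values with at least 20 counts). Annotation release and strand setting: not given in the sources used here.

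Of 34745 genes, 34267 matched a symbol in GENCODE M21, from which coordinates and exon overlaps come. The members and all lists were chosen with earlier results of these data known. CPM are over the library total, or TMM-normalized where stated. Groups were tested by quasi-likelihood in edgeR 4.0.16 (R 4.3.3; limma 3.58.1 and DESeq2 1.42.0 for alternatives) with diet as the only term, minimum count 10, minimum total 15 and Benjamini-Hochberg adjustment over 13186 genes at 0.05. Each SE is the size of the log2 fold change divided by the root of its F statistic. Scripts were tested on simulated data. Intervals for shares and ratios of counts are exact (95%) and cover counting error only. Same-diet libraries varied 14.5 to 37.6 times more than sampling alone gives (chi-square per degree of freedom), so none was treated as a repeat. All members are accounted for; other genes named were among the highest of each list, defining markers, and Cmya5, which was also among the 10 non-member genes that stood furthest above the median of the other libraries in ND 2. Hspb7, Nrap, Mylk2, Myoz2, Trim54, Jph2 and Casq2 were chosen after their values were seen. Alternatives are listed in the closing section. A value of 1 other gene is not reported here.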

Additional observations from a re-analysis of the deposited data

Results flagged for a closer look

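In 2 of the 28 groups of 4 libraries examined (12 tested fibre genes and 2 summed levels, in each diet), 1 library lay far from the other 3 by Dixon's ratio at its 95% critical value, which chance passes in about 1 in 20 groups. Both concern HCD 3, where Acta1 was at 1.33 CPM (TMM-normalized) against 0.242 to 0.34 CPM in the other HCD libraries and Myh4 was at 0.692 CPM against 0 to 0.0606 CPM. Acta1 belongs to both fibre types and Myh4 to fast fibres. Among the other fast genes, HCD 3 had the highest HCD count for Myh1, Myh2, Tnnt3, Tnni2, Tnnc2, Myl1 and Atp2a1. Of these, Tnnt3 had 4 counts there, and Tnni2 had 7 against 6 in HCD 4. HCD 3 was not the highest for Mylpf, Actn3 or Casq1, and it had 0 counts of Mybpc2, Pvalb and Myoz1.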

How the results depend on the processing

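Without any single library, the count of called fibre genes stayed at 0, the median log2 fold change of the tested fibre genes ran from -2.66 to -1.23 (over 12 to 16 genes that passed the filter in each fit, and from -2.20 to -1.29 over the same 12), the ratio of summed ND to HCD levels from 1.68 to 2.57, and the number of genes called over the whole file from 0 to 12, against 24 with all libraries. The median of -1.23 is that without ND 2, and the 0 called genes are those without ND 4 or HCD 4, with 1603 and 1516 at an unadjusted p under 0.05 (edgeR). Without ND 1 and ND 2 together, an alternative chosen after seeing the data, the median was -0.21 and 11 genes were called over the whole file, and Atp2a1 reversed to 0.10. Among the 204 log2 fold changes of the 12 tested genes under the 17 alternatives, this was the only positive one, and 5 passed the threshold, all negative. Without the expression filter 7 fibre genes and 93 genes in all were called. DESeq2 called 3 and 431, robust dispersion 0 and 50. A fit that marks ND 2 to ND 4, the libraries with stray low counts, called 0 and 5. With the replicate block, 0 genes were called over the whole file, 1634 had an unadjusted p under 0.05 (edgeR), and 5 of the 12 fibre genes were among them. Same-numbered libraries did not deviate together (correlations of 0.0249, -0.0113, -0.0676 and 0.107 across genes), so the block rests on a number alone. Without Eno3 and Neb, left out after seeing the data, the ratio of summed levels was 5.27, and with ND 1 and ND 2 left out as well 1.57. The ratio over all 35 genes kept its direction with TMM-normalized CPM, FPKM, group medians and totals without mitochondrial genes. Depth limits the low genes: 3 counts correspond to 0.169 to 0.205 CPM.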

Other observations

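Among the 10 genes outside the fibre list that stood furthest above the median of the other 7 libraries in ND 2, Cmya5 was on the list of other muscle genes. Cpt1b, the muscle form of the mitochondrial carnitine palmitoyltransferase, had 13, 32, 2 and 1 counts in ND and 1, 17, 37 and 4 in HCD, so it was high in HCD 3 as well as in ND 2.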
